A study of Homo sapiens with 4 samples.

Results

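The way of glucose from uptake to lactate was followed through 10 genes, chosen by name and kept in pathway order: the transporter SLC2A1, the glycolytic enzymes HK1, HK2, GPI, PFKP, ALDOA, PGK1, ENO1 and PKM2, and LDHA, which forms lactate. They are 10 of the 36337 gene names on the array and are represented by 14 of its 50599 probes. No member was called changed by the miR-335 mimic: 0 of the 12 member probes that could be tested passed a limma adjusted p of 0.05. Of all 20328 tested probes 2.62% passed (532 probes). At so small a share, 0 calls among 12 probes do not set the members apart from the rest of the array. The 12 differences between mimic and control lay between -0.09 (HK1) and 0.13 (ALDOA) on the log2 scale. Among the other glycolytic isozymes and enzymes tested, the largest differences were in LDHB, the partner isozyme of LDHA. Its 2 probes differed by -0.36 and -0.42 without passing the adjusted threshold. In the wider gene lists PDK4 (-0.48) and 1 probe of SLC2A6 (0.42) passed, while the other SLC2A6 probe went the opposite way (-0.22). Both calls depended on the processing.

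The cells were GIST-T1, an established human line from a gastrointestinal stromal tumor (GIST). Per transfection, 3000000 cells received by electroporation 100 pmol of either a mirVana miR-335 mimic (2 arrays) or mirVana Negative Control #1 (2 arrays), both grown in DMEM with 10% serum, and RNA was taken after 48 h and hybridized in 1 color (Cy3) from 100 ng of total RNA. All cells are thus transfected cells of 1 line, no untransfected cells were among the arrays, and no label says that replicate arrays came from separate cultures, so p-values measure only the spread between these arrays, which may be technical. The title and transfection label of both mimic arrays give miR-335, whereas the last line of their description names a miR-34a mimic; this conflict was not tested, and the arrays are called by the first of these labels.

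All 4 arrays lay on 1 slide and were scanned once, with the control arrays side by side and the mimic arrays side by side, so that position on the slide and group cannot be told apart. Between 40.3% and 41.9% of probes were well above background per array, and the 75th percentile of the signal lay between 179 and 190 intensity units. All 13 probes of the 6 GIST markers KIT, ANO1, ETV1, PRKCH, PDGFRA and CD34 were well above background on 4 of 4 arrays. The probes of PTPRC, CD3E, PECAM1, VWF, CDH1 and KRT20, which mark blood, endothelial and epithelial cells, were above it on 0 arrays, those of CD68 and CDH5 on 2, and that of EPCAM on 4, with a control mean of -1.07 and a mimic mean of -1.96 (log2 signal over the array's 75th percentile). The 2 control arrays differed by 1.05 in EPCAM, and its part in the results below was not tested.

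Glycolysis splits glucose into pyruvate in the cytosol and yields ATP and NADH without oxygen. SLC2A1 (GLUT1) carries glucose through the plasma membrane, hexokinase traps it as glucose-6-phosphate, and phosphofructokinase commits it to the pathway. Of the lower steps, those of phosphoglycerate kinase and pyruvate kinase recover ATP. Lactate dehydrogenase turns pyruvate into lactate and regenerates NAD+, so that glycolysis can go on. Many tumor cells run this pathway at a high rate also in oxygen, and most steps have several isozymes encoded by different genes. GISTs take up glucose strongly, which is used to image them by PET.

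The mimic stands for the mature strands of MIR335. They are shown because a microRNA recognizes its targets mainly through its seed, bases 2 to 8, in capitals here; sequences are from RefSeq (GRCh38.p14), for miR-335-5p at chr7:130496126-130496148 and for miR-335-3p at chr7:130496162-130496183, both on the plus strand. Which of the strands the commercial mimic delivers is not given in the sources used here.
hsa-miR-335-5p: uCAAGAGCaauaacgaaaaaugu
hsa-miR-335-3p: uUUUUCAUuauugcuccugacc
The site that pairs with the 5p seed (GCTCTTG) was in 0 of the 14 member probes and in 221 of all 50599 probes (0.437%). The site of the 3p seed (ATGAAAA) was in 0 of the 14 and in 618 of all (1.22%). A probe covers 60 bases of a transcript, so these counts say nothing of sites elsewhere in it. Of the 116 probes of related genes described below, 1 held the 5p site, that of ENO3.

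Values are given below as the log2 signal of a probe minus the 75th percentile of its array, always as mimic replicate 1, mimic replicate 2, control replicate 1 and control replicate 2. Hybridization strength differs between probes, so the level of one probe was not ranked against that of another, and only the difference of the same probe between groups was tested. Coordinates are those of the probe in hg19 as the array files list them.

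Uptake and trapping of glucose came first. The SLC2A1 probe at chr1:43391874-43391933 read 1.99, 1.96, 1.92 and 1.96. The groups overlapped, and mimic minus control was 0.04 ± 0.04 (SE; 95% interval -0.08 to 0.16). Another SLC2A1 probe, at chr1:43396070-43396129 and tied to a different transcript model, was above background on 0 of the 4 arrays and was not tested. HK1, the hexokinase of most tissues, read 3.86, 3.92, 4.02 and 3.94 (chr10:71161158-71161217). Both mimic arrays lay below both control arrays, and the difference was -0.09 ± 0.05 (SE; interval -0.24 to 0.06). HK2, the hexokinase induced in muscle and in many tumors, read 0.49, 0.61, 0.40 and 0.66 (chr2:75120331-75120390). Here the 2 control arrays differed from each other by 0.26, more than any other of the 12 tested member probes did between replicates, and enclosed both mimic arrays. Its difference was 0.02 ± 0.11 (SE), and in percent of the control level its interval ran from -19.2 to 27.5. A further HK2 probe, at chr2:75118359-75118418, was below that detection level on all 4 arrays.

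The upper enzymes followed. GPI, which isomerizes glucose-6-phosphate to fructose-6-phosphate, read 6.13, 6.19, 6.19 and 6.22 (chr19:34891174-34891233), a difference of -0.04 ± 0.04 (SE). Both mimic arrays were lower than the lower control array, though mimic replicate 2 differed from it by less than the mimic arrays differed from each other. PFKP, the platelet form of phosphofructokinase, had 2 tested probes, and they pointed in opposite directions. The probe at chr10:3178781-3178840 read 4.31, 4.33, 4.37 and 4.36, lower on both mimic arrays by -0.05 ± 0.04 (SE). The probe at chr10:3177970-3178029 read 3.07, 3.03, 2.99 and 2.98, higher on both by 0.06 ± 0.04 (SE). Neither passed (limma adjusted p 0.464 and 0.385), so that no direction is given for PFKP. ALDOA, the aldolase that cleaves fructose-1,6-bisphosphate, read 6.13, 6.13, 6.02 and 5.97 with a probe listed over 147 bases, chr16:30081324-30081470. Both mimic arrays lay above both control arrays by 0.13 ± 0.04 (SE; interval 0.02 to 0.25), which is a level 1.17% to 19.1% higher. ALDOA was the 1 member probe with an unadjusted p below 0.05 (limma), where 25.3% of all tested probes had one, and its limma adjusted p was 0.167.

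The enzymes of the lower, ATP-yielding part came next. PGK1, which makes ATP from 1,3-bisphosphoglycerate, is printed in 10 spots per array and its probe read 6.38, 6.41, 6.44 and 6.42 (chrX:77381462-77381521). The spread of its 10 spots (SD) lay between 0.04 and 0.06 log2 units on each array, which puts the error of an array's mean at no more than 0.02. Its difference, -0.04 ± 0.04 (SE; interval -0.15 to 0.08), was of the size of the gap between the 2 mimic arrays, 0.04. ENO1, the common enolase, read 5.53, 5.48, 5.42 and 5.39 (chr1:8924054-8924113), a difference of 0.10 ± 0.04 (SE; interval -0.02 to 0.21). PKM2, pyruvate kinase of muscle type (named PKM by RefSeq), read 4.64, 4.70, 4.55 and 4.57 (chr15:72491640-72491699), a difference of 0.11 ± 0.04 (SE; interval -0.01 to 0.23). ENO1 and PKM2 were thus higher on both mimic arrays than on either control array, and neither passed (limma adjusted p 0.25 and 0.224). Whether the PKM2 probe tells the M1 and M2 splice forms apart was not analysed here.

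LDHA, the lactate dehydrogenase subunit that favors the making of lactate, closed the pathway with 2 probes. That at chr11:18428789-18428848 read 3.07, 3.20, 3.16 and 3.08. The mimic arrays enclosed the control arrays, and the difference was 0.02 ± 0.07 (SE; interval -0.17 to 0.21; limma adjusted p 0.871). The other probe carries the name LDHA but is listed at chr9:14921817-14921876, while the LDHA gene lies on chromosome 11, and RefSeq lists a pseudogene of it, LDHAP4, on chromosome 9. It read 1.25, 1.32, 1.20 and 1.29, a difference of 0.04 ± 0.05 (SE), and may count copies of the gene together with LDHA. Both probes had overlapping groups.

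**Figure D1:**
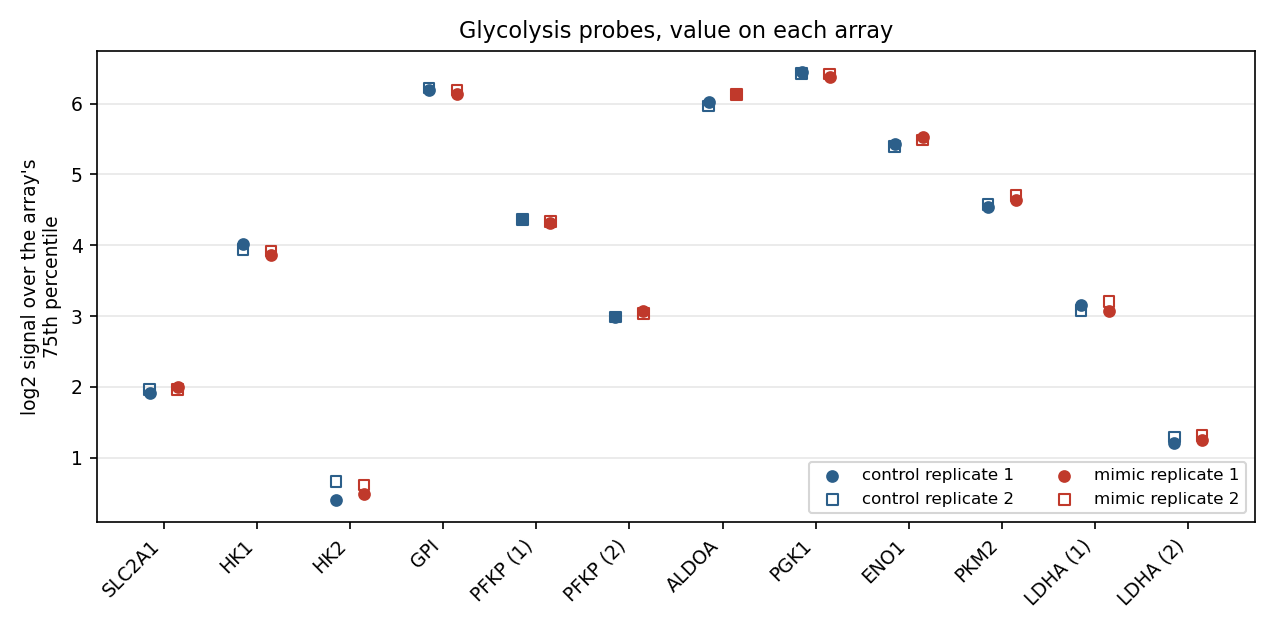
Log2 signal over the 75th percentile of the array (vertical axis) for the 12 tested member probes in pathway order, with 1 point per array; filled circles are replicate 1 and open squares replicate 2, control in blue and mimic in red. The 4 points of each probe lie close together, from the tightest pair, the ALDOA mimic arrays, to the widest, the HK2 control arrays, which differed by 0.26; levels of different probes are not comparable.

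Taken over the 12 tested probes, 8 were higher and 4 lower with the mimic, where 9388 of all 20328 tested probes were higher and 10940 lower. The median difference was 0.03, beside -0.01 over all tested probes. With 1 probe per gene, the brightest, the members' median was 0.02. Scaled to the spike-in RNAs in place of the 75th percentile, the medians were -0.16 for the members and -0.20 for all tested probes, so the sign of the members' median rests on the scaling. The median size of the difference was 0.05 for the members and 0.10 for all tested probes, and the median SD between replicates was 0.03 and 0.06. The groups did not overlap in 8 of the 12 member probes, 4 higher and 4 lower, beside 59.7% of all tested probes. None of the 12 differed by more than 1.5-fold, the limit that the study used, beside 3.90% of all tested probes. This share is too small for 0 of 12 to set the members apart. Under the 75th-percentile scaling the intervals of the 12 probes ran from -0.31 to 0.35, both ends from HK2, and the smallest adjusted p was 0.167 (limma). They cover only the spread between these arrays and not the choice of scaling. Spike-in scaling put every difference on the array 0.19 lower, and 4 member probes then passed. The share of all tested probes that passed under it was not counted here.

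The 3 steps that lie between the members were added, with values seen, to complete the pathway. TPI1, triosephosphate isomerase, differed by 0.10 and 0.00 on its 2 probes, which overlap in position. GAPDH, printed in 10 spots, read 7.46, 7.47, 7.39 and 7.36 and differed by 0.09 ± 0.04 (SE; interval -0.02 to 0.20). PGAM1, phosphoglycerate mutase, differed by 0.08 and 0.03, and the probe named for its near-identical copy PGAM4 by 0.02. None passed the threshold (smallest limma adjusted p 0.259), and no step from glucose entry to lactate had a member or added probe that did.

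**Figure D2:**
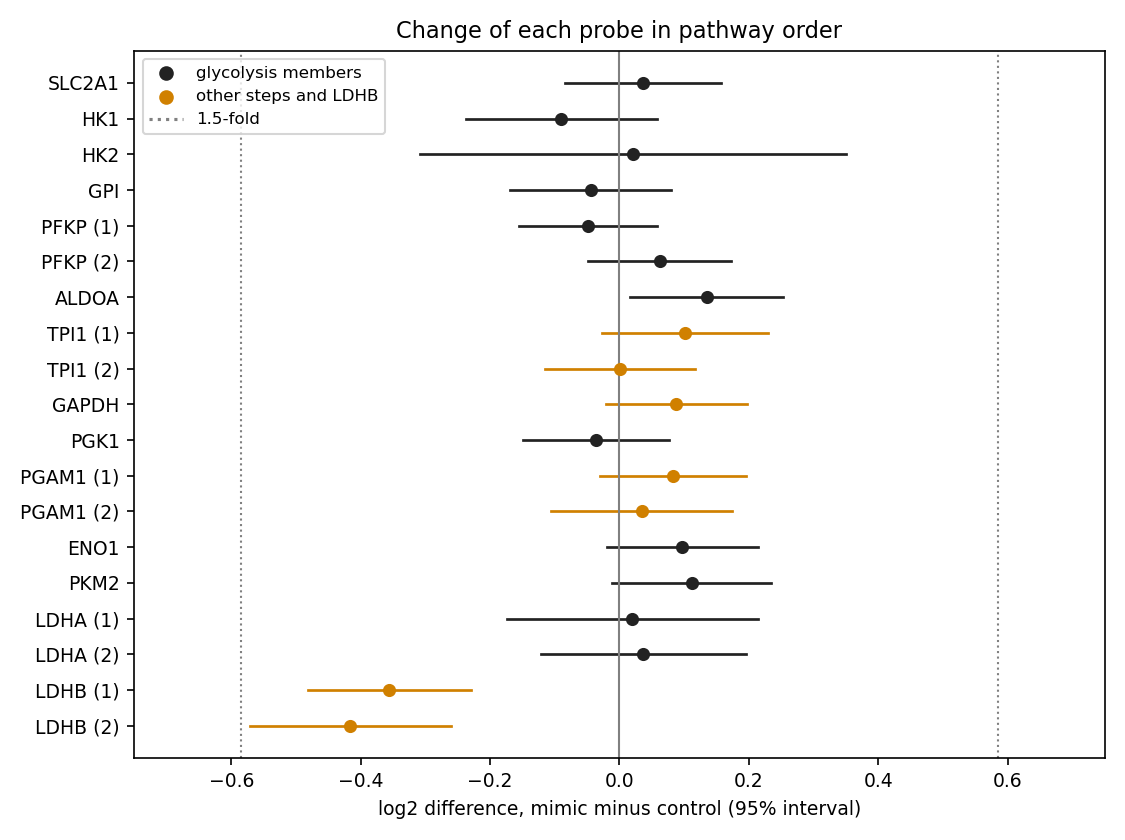
Difference of each probe in log2 units, mimic minus control (horizontal axis), with its 95% interval from limma, in pathway order; black marks the members, orange the steps between them and LDHB, and dotted lines 1.5-fold. Among the members only the interval of ALDOA leaves out 0, and both LDHB probes lie at -0.36 and -0.42, apart from the LDHA probes at 0.02 and 0.04.

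Isozymes were compared next as the change of a within-array difference, in which the scale of an array cancels; a difference between 2 probes is no ratio of amounts, and only its change is read. For LDHA minus LDHB the values were -4.68, -4.55, -4.98 and -5.00. Both mimic arrays lay above both control arrays by 0.38 on average, the mean being -4.61 ± 0.09 with the mimic and -4.99 ± 0.01 in the control (SD, n = 2 each). ALDOA minus ALDOC, the brain form of aldolase, gave 4.61, 4.72, 4.45 and 4.36, a mean higher by 0.26 with the mimic and no overlap. PFKP minus PFKM, the muscle form, gave -0.81, -0.86, -0.77 and -0.72, a change of -0.09 without overlap, but with the other PFKP probe the change was 0.018. PFKP minus PFKL, the liver form, changed by -0.02 and HK2 minus HK1 by 0.11, both with overlapping groups. With 2 arrays against 2 the smallest two-sided p of the exact permutation test is 0.333, which the first 3 of these pairs reached (0.556 after adjustment over the 5 pairs), so that no pair could pass. Of 2 further pairs, ENO1 with ENO2 and SLC2A1 with SLC2A3, the partner (the neuronal enolase and the transporter GLUT3) was above background on 0 arrays.

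**Figure D3:**
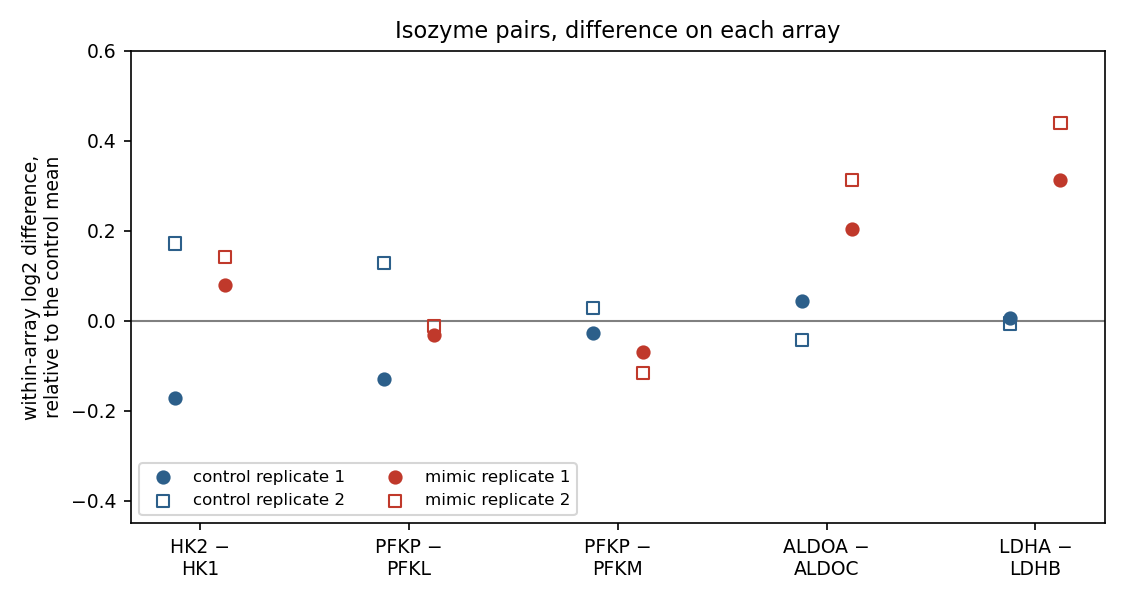
Within-array log2 difference between the 2 isozymes of a pair, minus its mean over the control arrays (vertical axis), with 1 point per array; filled circles are replicate 1 and open squares replicate 2. The mimic points lie above the control points for ALDOA with ALDOC and LDHA with LDHB (mean changes 0.26 and 0.38), below them for PFKP with PFKM, and among them for the other pairs.

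The LDHA and LDHB contrast came from LDHB, the subunit that favors the use of lactate. Its probe at chr12:21788449-21788508 read 7.75, 7.75, 8.14 and 8.08, and that at chr12:21791305-21791364 read 5.64, 5.69, 6.13 and 6.03. On both probes the mimic arrays were below the control arrays by several times the gap between replicates. The differences were -0.36 ± 0.04 and -0.42 ± 0.05 (SE), or intervals of -0.48 to -0.23 and -0.57 to -0.26, and the limma adjusted p of 0.058 and 0.061 stayed above the threshold. Over 14 alternative ways of processing the difference kept its sign on both probes and passed in 4 for the brighter probe and in 3 for the other. Where the spread was allowed to follow intensity (eBayes with a trend) the limma adjusted p was 0.000394 and 0.000459, and when single arrays were left out it lay between 0.154 and 0.214.

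The stretches before the transcription starts of this pair are shown because LDHA is a textbook target of hypoxia-inducible factor, whose core site is ACGTG; capitals mark ACGTG on either strand, some of it inside the E-box CACGTG. They are the 250 bases upstream of the start in RefSeq (GRCh38.p14), for LDHA at chr11:18394313-18394562 on the plus strand, the more upstream of 2 starts, and for LDHB at chr12:21657843-21658092 on the minus strand.
LDHA: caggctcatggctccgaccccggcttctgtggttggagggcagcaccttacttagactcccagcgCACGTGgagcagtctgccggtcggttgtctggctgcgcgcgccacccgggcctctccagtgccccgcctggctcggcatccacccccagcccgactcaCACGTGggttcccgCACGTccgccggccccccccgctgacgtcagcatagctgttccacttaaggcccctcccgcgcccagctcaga
LDHB: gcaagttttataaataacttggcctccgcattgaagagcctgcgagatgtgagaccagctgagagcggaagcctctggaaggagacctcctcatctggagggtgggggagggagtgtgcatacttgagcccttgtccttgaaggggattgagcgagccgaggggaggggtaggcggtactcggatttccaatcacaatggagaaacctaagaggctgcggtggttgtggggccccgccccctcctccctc
The LDHA stretch held the motif in 3 places and that of LDHB in 0. Of the 2 windows of LDHA only 1, the one shown, held it, so this contrast depends on the start chosen. All 10 members matched a RefSeq promoter, with 23 windows, and 6 of them (HK2, GPI, PFKP, ALDOA, PGK1 and LDHA) had the motif in at least 1, while SLC2A1, HK1, ENO1 and PKM2 had it in none. Genes with several starts have more chances to hold it; of all 35116 windows of this length 18.5% held it, and of all 27305 genes 21.7%. A match of letters is no measured binding site, and the members with and without it both had differences on each side of 0.

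The genes around the pathway were then counted by list. Of the other glycolytic isozymes and enzymes, 18 of 30 probes (14 of 24 genes) were tested, 0 passed the threshold and the median difference was 0.01. Beside LDHB the largest differences were in ENO3, the muscle enolase, with 1.13, 1.10, 0.85 and 0.83, a difference of 0.27 ± 0.04 (SE; limma adjusted p 0.068), and in ALDOC with -0.12 (limma adjusted p 0.271). The probe of ENO3 is the one that holds the miR-335-5p seed site, and its signal was higher with the mimic, without passing the threshold. A link between the site and this difference was not tested. The probes of HK3, ENO2 and PKLR, the isozymes of leukocytes, neurons and red cells, were above background on 0 arrays.

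Glucose and lactate transport had 13 of 27 probes tested, with a median difference of 0.00. Of the 13, 1 passed as higher and 0 as lower, beside 2.62% of all tested probes. SLC2A6, a member of the GLUT family, read 2.93, 2.96, 2.53 and 2.51 at chr9:136336469-136336528 and rose by 0.42 ± 0.04 (SE; limma adjusted p 0.0404). Its other probe, at chr9:136336217-136336276, read 1.01, 1.09, 1.29 and 1.25, a difference of -0.22 in the opposite direction that did not pass (limma adjusted p 0.112), so the gene as a whole has no settled direction. The call on the former probe was lost without any 1 of the 4 arrays (limma adjusted p 0.156 to 0.197, changes 0.41 to 0.44). SLC16A1 and SLC16A3, the lactate carriers MCT1 and MCT4, differed by 0.10 and 0.00 and their partner BSG by 0.00; these 3 are named with their values seen. None of the 4 arrays detected SLC2A2, SLC2A3 or SLC2A4, the transporters typical of liver, neurons and muscle.

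Of the regulators of flux and pyruvate entry, 19 of 23 probes were tested, 1 passed as lower and 0 as higher, beside 2.62% of all tested probes. PDK4, a kinase that inhibits pyruvate dehydrogenase, read 2.35, 2.41, 2.87 and 2.85 at chr7:95213307-95213366. It fell by 0.48 ± 0.04 (SE; interval -0.61 to -0.35; limma adjusted p 0.0407), with no overlap between the groups. Without any 1 of the 4 arrays the change was -0.51 to -0.45 and the call was lost (limma adjusted p 0.155 to 0.196). Of the 19 probes 16 were lower and 3 higher, where 10940 of all 20328 tested probes were lower and 9388 higher. The median was -0.09, beside -0.01 for all tested probes. Also lower, without passing and named after their values were seen, were PFKFB3, which makes the activator of phosphofructokinase (-0.41; limma adjusted p 0.15), and PDP1, the phosphatase that opposes the PDK kinases (-0.26; limma adjusted p 0.073). The 2 mimic arrays differed from each other by 0.29 on the PFKFB3 probe, and another PFKFB3 probe was well above background on 0 arrays. PDK2 differed by -0.18 and -0.09 on its 2 probes, and PDK1 and PDK3 by -0.10 and -0.22.

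The side branches and the oxygen-sensing genes had no call. In the pentose phosphate pathway 7 of 9 probes were tested and the median was 0.04, with differences of 0.23 in PGD (limma adjusted p 0.111) and 0.13 in RPIA (limma adjusted p 0.176). Of the genes particular to gluconeogenesis only G6PC3 (-0.05) and PC (-0.03) could be tested, 2 of 8 probes, and FBP1, PCK1, PCK2 and G6PC were not well above background. Among oxygen sensing and hypoxia targets 17 of 19 probes were tested with a median of -0.04. The list's largest differences that were measured on all 4 arrays were in ANKRD37 (-0.28) and HIF1AN (-0.27; limma adjusted p 0.56 and 0.182). The probe of EGLN3 entered the test through the 2 control arrays and was not well above background on either mimic array. Its means were -2.95 (mimic) and -2.66 (control), with overlapping groups and a limma adjusted p of 0.397. Since the filter kept it only through the control arrays, neither a direction nor a size of change is read from it. HIF1A itself, the oxygen-regulated subunit, differed by -0.08 on a probe printed in 10 spots and by 0.10 on a dimmer one, and neither passed. Under spike-in scaling all these values shift down by 0.19, and the medians of the lists above 0 then lie below it.

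**Figure D4:**
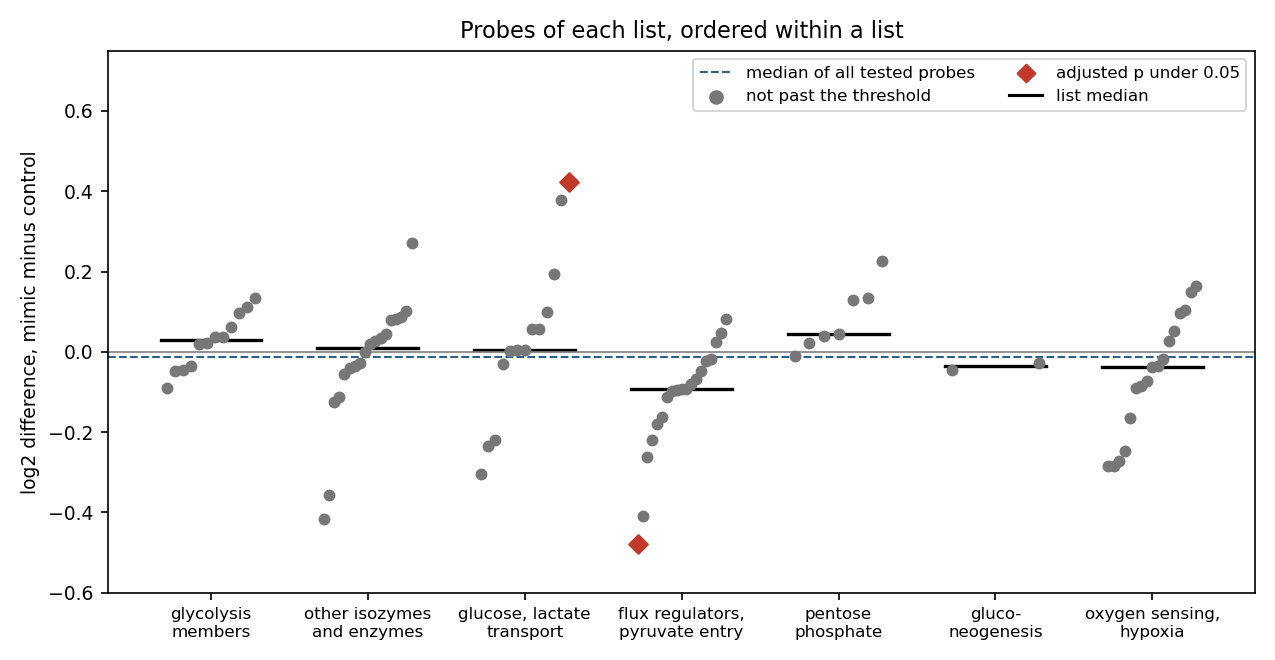
Log2 difference between mimic and control (vertical axis) of each tested probe, ordered from low to high within its list; black bars are list medians, the dashed line the median of all tested probes (-0.01), and red diamonds the probes past the limma adjusted threshold. The members span -0.09 to 0.13 with no diamond, while the 2 diamonds are SLC2A6 at 0.42 and PDK4 at -0.48.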

How the data were processed

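The authors hybridized 4 one-color arrays, and the deposited files hold spot intensity values from Agilent Feature Extraction 10.7.3.1 per the file headers (10.7 in the submitters' processing notes), background-subtracted and detrended within an array and not normalized between arrays. The series table that the authors deposited holds the same intensity, rounded; 0 of its columns were unmatched. Outlier spots (356 to 395 per array) were left out, 0 spots were saturated, spots of a probe were averaged as log2, and the 75th percentile of the array was subtracted. Probes with at least 0.5 of their spots well above background on both arrays of a group were tested across all probes with limma 3.58.1 in R 4.3.3 (lmFit, eBayes, no covariates) with Benjamini-Hochberg adjustment. The fit was tested on simulated data with changes of 1.5-fold or more, a size that no member probe reached. That simulation does not bear on smaller changes. Isozyme pairs (brightest tested probe of each gene) were compared by the exact permutation test (scipy 1.17.1).

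Members, gene lists and tests were chosen with earlier results of these data known. All members are named, as are the isozyme partners, and of each list the genes that passed or otherwise the 3 with the largest differences; other names are marked, and some list genes are not reported here. Of the gene lists, TIGAR, MPC1 and MPC2 were found under older names (C12orf5, BRP44L, BRP44). The number of arrays limits the precision. Alternatives were quantile, detected-probe and spike-in scaling, normexp (offset 50), the series table, 2 other filters, 2 other variance models, a replicate block, single arrays left out, the methods' t-test and 1.5-fold without a test. Exon or UTR position of probes and protein sequences were not analysed here.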

Additional observations from a re-analysis of the deposited data

How the results depend on the processing

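The 0 calls among the members held in 14 of 17 alternative counts. Spike-in scaling, which moves every probe down by 0.19, called 4 (HK1, GPI, PFKP and PGK1, all lower), eBayes with a trend called 2 (ALDOA and PKM2), and the methods' t-test at an unadjusted p called 1, against 0 after Benjamini-Hochberg. In limma at an unadjusted p between 0 and 6 member probes lay below 0.05 over the alternatives. Of the 2 list calls (PDK4 and SLC2A6) 0 were left with the replicate block, without a filter, by the 1.5-fold limit and without any 1 of the 4 arrays (range 0 to 0), whereas normexp gave 7, the trend 16 and spike-in scaling 40. The share of all tested probes called under each alternative was not counted here. The member and list counts above are therefore not read as results about these genes. Under spike-in scaling the median of all tested probes was itself -0.20. With the replicate block 0 member probes and 0 list probes were called, at an unadjusted p 0 and 16. Over the tested probes, replicate 1 minus replicate 2 of the mimic arrays and the same difference of the control arrays correlated at 0.03. With 2 arrays per group this cannot decide whether the numbers pair the arrays. All arrays shared 1 slide and 1 scan, so neither could be a block.

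The members' median was -0.16 under spike-in scaling and -0.018 without mimic replicate 2 (single arrays left out, range -0.018 to 0.059). Under spike-in scaling SLC2A1 came to -0.15, HK2 to -0.17, the PFKP probe at chr10:3177970-3178029 to -0.12, ALDOA to -0.052, ENO1 to -0.090, PKM2 to -0.075 and the LDHA probes to -0.17 and -0.15, and with normexp SLC2A1 to -0.010. When single arrays were left out HK2 ranged from -0.11 to 0.15 and the LDHA probes from -0.045 to 0.085 and from -0.0080 to 0.082. HK2 minus HK1 ranged from -0.061 (without control replicate 1) to 0.28, and PFKP minus PFKL from -0.15 to 0.11 (without control replicate 2). With the other PFKP probe PFKP minus PFKL was 0.089 and PFKP minus PFKM 0.018. The causes were not tested.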
